A study of Mus musculus with 6 samples.

Results

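The 10 genes Dusp1, Dusp2, Dusp4, Dusp5, Dusp6, Dusp10, Dusp14, Spry1, Spry2 and Spred1 encode brakes on mitogen-activated protein (MAP) kinase signalling. They were taken by symbol from the 55809 genes of the deposited tables; all 10 were present and all 10 passed the filter on low counts, which left 16716 genes in the test. MAP kinases (ERK, JNK and p38) carry signals from surface receptors to the nucleus, and in mast cells the stem cell factor receptor KIT and the IgE receptor both switch them on. Dual-specificity phosphatases (DUSPs) switch the kinases off by removing phosphate from a threonine and a tyrosine of the activation loop, and many DUSP genes are themselves induced by the kinases that their products switch off. Sprouty and Spred proteins act further up, between the receptor and RAF.

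The libraries held polyadenylated RNA of mast cells from the skin of C57BL6J mouse fetuses at embryonic day 18.5, sorted as CD45+ F4/80- CD64- CD117+ ST2+ cells after enzymatic digestion of the tissue. Fetuses of the prenatal stress group came from dams held in restraint tubes with bright illumination in sessions of 30 minutes, 3 per day, and those of the control group from dams that were not disturbed; the parents were 8 to 10 weeks old in both groups. The stress ran from embryonic day 13 to 18 in one text of the submitters and from 13.5 to 18.5 in another. Each group had 3 libraries, each made from a pool of 4 mice of unstated sex (both sexes were used in the study). The p-values weigh the difference between the groups only against how much such pools vary, not against how much single mice vary. The restraint was applied to the dams, and the litter origin of each pool is not given in the sources used here. Pools of a group may share litters, so the 3 libraries of a group may not be 3 independent exposures.

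The stress libraries held 51710555 to 57806119 counts assigned to genes and the control libraries 54616570 to 74735139. The smallest count of any of the 10 genes in any library was 391, for Dusp14 in control replicate 2. Levels are in CPM, which are counts relative to library size, here scaled with TMM factors; log2 fold changes are prenatal stress over control with their standard error (SE), and a gene passed at an adjusted p under 0.05 (quasi-likelihood test of edgeR, Benjamini-Hochberg adjustment over all genes tested).

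Most of the brake genes were higher after prenatal stress. Dusp1, Dusp2, Dusp4, Dusp5, Dusp14 and Spry1 rose, and none of the 10 fell. Dusp6, Dusp10, Spry2 and Spred1 did not pass. That is 6 of the 10 brake genes, where 6.19% of all genes tested passed, 4.34% higher and 1.85% lower. Of the genes that passed 70.0% were higher, against 26.5% with library totals in place of TMM factors. The groups did not overlap in 7 of the 10, with the stress libraries above the controls in each; over all genes tested they did not overlap in 30.6%, with stress above in 16% and below in 14.5%. The median log2 fold change was 0.43 over the 10 genes and -0.0039 over all genes tested. With 1 library left out in turn, between 2 and 7 of the 10 passed: 2 without control replicate 2, 3 without control replicate 3 or stress replicate 2, and 7 without stress replicate 3. The share of all genes that passed moved as well. It was 1.33% without control replicate 2, 2.27% without control replicate 3, 1.14% without stress replicate 2 and 15.4% without stress replicate 3.

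**Figure D1:**
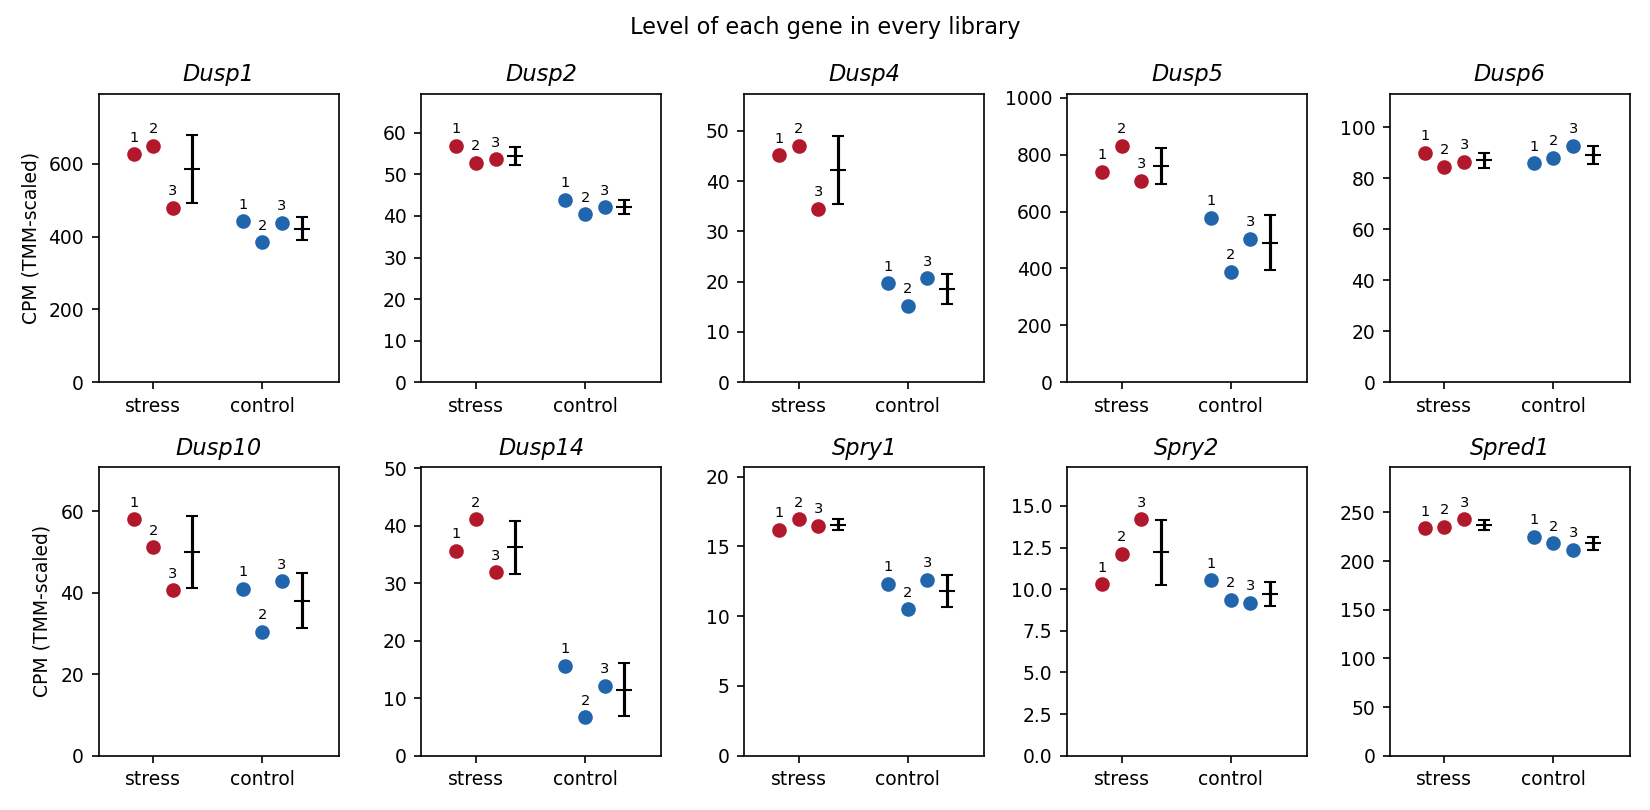
CPM (vertical axis, from 0) of each of the 10 genes in the 3 prenatal stress libraries (red, left) and the 3 control libraries (blue, right), numbered by replicate, with the group mean and SD in black. Relative to their level the groups are furthest apart for Dusp14 and Dusp4, and for Dusp6 they lie on top of each other.

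Dusp14 had the largest change of the family. Its product is a small phosphatase without the kinase-binding domain of the larger DUSPs. Dusp14 had 35.7, 41.1 and 31.9 CPM in stress replicates 1, 2 and 3, against 15.6, 6.65 and 12.2 CPM in control replicates 1, 2 and 3. The lowest stress library was above the highest control, and the controls were spread more widely (coefficient of variation 12.8% in the stress libraries and 39.5% in the controls). The gene rose 3.14-fold (log2 fold change 1.65 ± 0.25 SE, 95% interval 1.08 to 2.22, adjusted p = 0.0118). The call held without any 1 library, with log2 fold changes from 1.38 to 1.95 and adjusted p up to 0.0496.

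The phosphatases of the nucleus, Dusp1, Dusp2, Dusp4 and Dusp5, all rose. Dusp4, whose product acts mainly on ERK and JNK, had 45.2, 47.1 and 34.5 CPM in stress replicates 1, 2 and 3, against 19.7, 15.2 and 20.7 CPM in control replicates 1, 2 and 3. All stress libraries were above all controls, with stress replicate 3 the nearest to them. The gene rose 2.28-fold (log2 fold change 1.19 ± 0.14 SE, adjusted p = 0.0053), and the call held without any 1 library (adjusted p up to 0.0294).

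Dusp5, which encodes a phosphatase specific to ERK, had 740.4, 833 and 709 CPM in stress replicates 1, 2 and 3, against 578, 388 and 505 CPM in control replicates 1, 2 and 3. The groups did not overlap, and control replicate 2 was the lowest library. Dusp5 rose 1.55-fold (log2 fold change 0.63 ± 0.13 SE, adjusted p = 0.0312). The call ended without stress replicate 1 (adjusted p = 0.0738), stress replicate 2 (0.117), control replicate 2 (0.0624) or control replicate 3 (0.0852). A gene on the opposite strand, AC137853.2, overlaps 22.1% of the exon length of Dusp5 in GENCODE M21. The deposited counts hold no gene under that symbol, so its level is not known here. The strand setting of the counting is not given in the sources used here, so reads from the overlap cannot be assigned with certainty.

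Dusp1 encodes MKP-1, an immediate early phosphatase of p38, JNK and ERK that glucocorticoids also induce in many cell types. Dusp1 had 627, 650.0 and 479.8 CPM in stress replicates 1, 2 and 3, against 442, 385 and 438 CPM in control replicates 1, 2 and 3. Stress replicate 3 stood close to the upper controls, while the other stress libraries were well above them. Dusp1 rose 1.39-fold (log2 fold change 0.47 ± 0.11 SE, adjusted p = 0.0471). The call was near the threshold: it held without stress replicate 3 (adjusted p = 0.00159) and ended without any other library (adjusted p from 0.0975 without control replicate 1 to 0.185 without control replicate 2). With library totals in place of TMM factors it also ended (log2 fold change 0.36, adjusted p = 0.0555).

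Dusp2, a phosphatase of blood cells also known as PAC-1, had 57.0, 52.8 and 53.6 CPM in stress replicates 1, 2 and 3, against 43.9, 40.4 and 42.1 CPM in control replicates 1, 2 and 3. Both groups were tight and did not overlap. The rise was small, 1.29-fold (log2 fold change 0.37 ± 0.06 SE, adjusted p = 0.013), and it no longer passed when control replicate 2 (adjusted p = 0.064) or control replicate 3 (0.0522) was left out.

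Dusp6 is the cytoplasmic phosphatase of ERK and a common reporter of ERK activity. It had 89.9, 84.4 and 86.4 CPM in stress replicates 1, 2 and 3, against 85.9, 88.1 and 92.8 CPM in control replicates 1, 2 and 3. The libraries of the groups were interleaved, with a control the highest and a stress library the lowest. The log2 fold change was -0.03 ± 0.05 SE (adjusted p = 0.762), and its 95% interval, -0.16 to 0.09, covers folds from 0.897 to 1.07. Etv5, an ETS factor gene that ERK also induces, named here after its values were seen, was at 87.8, 78.1 and 88.4 CPM in the stress libraries, against 84.5, 81.7 and 89.8 CPM in the controls (adjusted p = 0.947). Etv5 is 1 of 29 ERK-responsive transcripts given further below, of which 8 rose, 2 fell and 19 did not pass.

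Dividing the count of each gene by that of Dusp6 in the same library gives a ratio that is free of library scaling. The ratio of Dusp4 to Dusp6 counts was 0.502, 0.558 and 0.399 in stress replicates 1, 2 and 3, against 0.23, 0.173 and 0.223 in control replicates 1, 2 and 3. For Dusp14 the ratio to Dusp6 was 0.396, 0.487 and 0.369 in the stress libraries, against 0.182, 0.0755 and 0.131 in the controls. In 6 of 9 such ratios all stress libraries were above all controls. These 6 are the genes that had passed, and Dusp6 itself hardly differed between the groups, so the ratios are not separate evidence. The ratio was not taken for other genes, so no share over all genes can be set beside this count. In a two-sided exact permutation test each of the 6 had p = 0.1, and no smaller p is possible with 3 libraries a group (0.15 adjusted over the 9 ratios). The 3 ratios that overlapped were those of Dusp10, Spry2 and Spred1 (exact p = 0.2). Dusp6 was taken as the divisor after the values were seen.

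Dusp10 encodes MKP-5, a phosphatase of JNK and p38. It had 58.1, 51.2 and 40.6 CPM in stress replicates 1, 2 and 3, against 41.0, 30.4 and 42.8 CPM in control replicates 1, 2 and 3. Stress replicate 3 lay inside the control range, so the groups overlapped. Dusp10 did not pass (log2 fold change 0.39 ± 0.15 SE, 95% interval 0.05 to 0.74, adjusted p = 0.154), but it passed without stress replicate 3 (0.52, adjusted p = 0.022) and with no filter on low counts (0.38, adjusted p = 0.0283).

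Of the Sprouty genes, which encode inhibitors of signalling from receptor tyrosine kinases to ERK, Spry1 rose. It had 16.2, 17.0 and 16.5 CPM in stress replicates 1, 2 and 3, against 12.3, 10.5 and 12.6 CPM in control replicates 1, 2 and 3. The stress libraries were close together and above every control. Spry1 rose 1.4-fold (log2 fold change 0.49 ± 0.09 SE, adjusted p = 0.018), a call that ended without stress replicate 2 (adjusted p = 0.0741) or control replicate 2 (0.0579). A gene on the opposite strand, Gm42922, overlaps 24.4% of the exon length of Spry1 and had at most 7 counts in a library.

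Spry2 had 10.3, 12.1 and 14.2 CPM in stress replicates 1, 2 and 3, against 10.5, 9.37 and 9.19 CPM in control replicates 1, 2 and 3. Stress replicate 1 lay below control replicate 1, and stress replicate 3 was the highest. The log2 fold change of Spry2 was 0.33 ± 0.12 SE with a 95% interval of 0.06 to 0.61 (adjusted p = 0.135).

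Spred1, which binds neurofibromin and thereby holds RAS back, had 234, 235 and 243 CPM in stress replicates 1, 2 and 3, against 225, 218 and 212 CPM in control replicates 1, 2 and 3. All stress libraries were above all controls by a small margin. Spred1 did not pass (log2 fold change 0.12 ± 0.05 SE, adjusted p = 0.203), and its interval ends at 1.18-fold. For Dusp6 and Spred1 the interval excludes the 1.29-fold rise measured for Dusp2; for Dusp10 and Spry2 it does not.

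**Figure D2:**
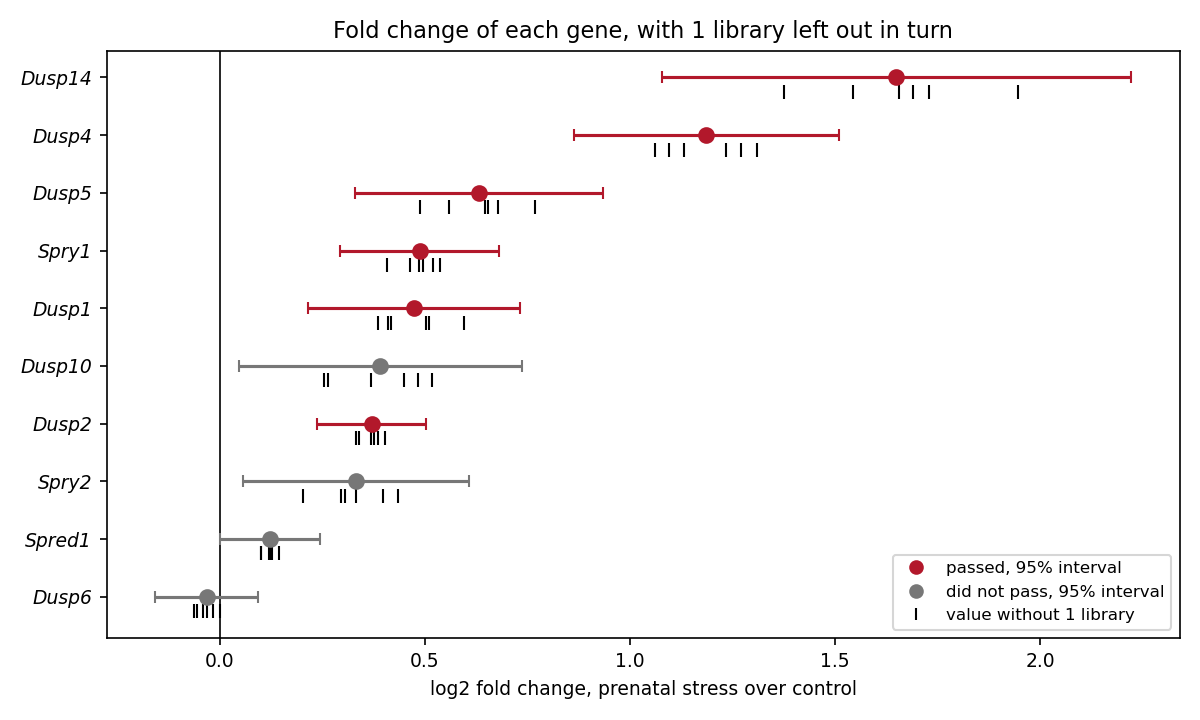
Log2 fold change, prenatal stress over control (horizontal axis), of each gene with its 95% interval, red where it passed and grey where it did not; black ticks are the values with 1 library left out in turn. Dusp14 at 1.65 and Dusp4 at 1.19 are apart from the other genes, which lie between -0.03 and 0.63.

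Levels were compared between genes per kilobase of exon. Dusp5 was the most abundant of the 10, at 308 ± 26.0 CPM per kilobase in the stress libraries and 198 ± 38.8 in the controls (SD, n = 3 each), and Dusp1 was next, at 177 ± 27.9 and 127 ± 9.6. Spred1 stood at 35.0 ± 0.751 in the stress libraries and 32.2 ± 0.954 in the controls, and Dusp6 at 27.8 ± 0.889 and 28.4 ± 1.12. Spry2 and Spry1 were the lowest, with Spry1 at 5.7 ± 0.132 in the stress libraries and 4.06 ± 0.396 in the controls.

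The order of the genes differed between the groups in the place of Dusp14. It was the sixth in the stress libraries, at 18.6 ± 2.39 CPM per kilobase, and the eighth in the controls, at 5.91 ± 2.33. In the stress libraries the ranges of Dusp6 and Dusp2, of Dusp14, Dusp10 and Dusp4 in turn, and of Spry2 and Spry1 overlapped with their neighbour's. In the controls the ranges overlapped for Dusp4 and Dusp14 and for Dusp14 and Spry2, and the other neighbours in the order were separate.

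**Figure D3:**
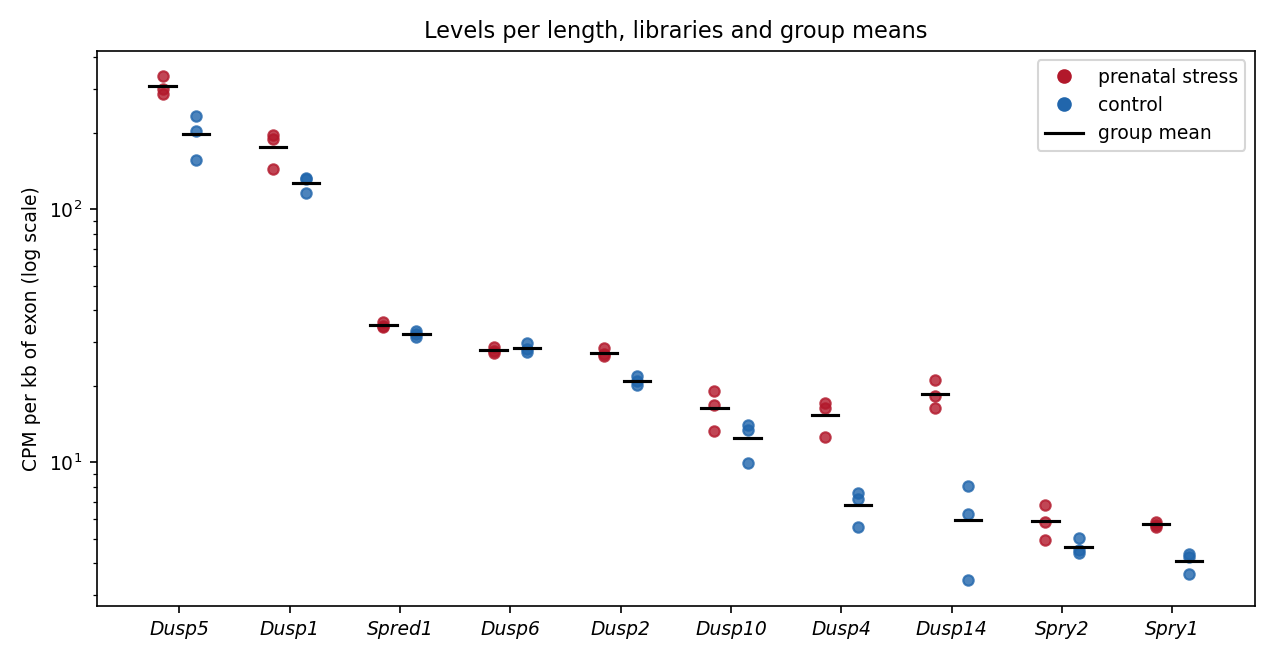
CPM per kilobase of exon (vertical axis, log scale) of the 10 genes, ordered by their control mean, in each prenatal stress library (red, left) and control library (blue, right), with group means as black lines. Dusp5 and Dusp1 are above 100 in every library, and the 3 stress values of Dusp14 lie between 16.4 and 21.2.

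The sequences before the start of Dusp1, Dusp5 and Dusp14 are shown because the first pair are the most abundant genes of the family and the last had the largest change. They are the 250 bases before each gene's start in RefSeq (build GRCm38.p6), 5′ to 3′ on the gene's strand, with matches to the motifs searched in capitals. The Dusp1 stretch is chr17:26508473-26508722 (minus strand), that of Dusp5 chr19:53528895-53529144 (plus strand) and that of Dusp14 chr11:84068358-84068607 (minus strand).
Dusp1: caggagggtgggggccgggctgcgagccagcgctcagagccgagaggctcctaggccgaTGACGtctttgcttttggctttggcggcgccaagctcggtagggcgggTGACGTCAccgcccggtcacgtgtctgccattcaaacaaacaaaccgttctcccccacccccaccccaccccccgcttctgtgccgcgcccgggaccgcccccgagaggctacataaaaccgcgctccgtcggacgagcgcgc
Dusp5: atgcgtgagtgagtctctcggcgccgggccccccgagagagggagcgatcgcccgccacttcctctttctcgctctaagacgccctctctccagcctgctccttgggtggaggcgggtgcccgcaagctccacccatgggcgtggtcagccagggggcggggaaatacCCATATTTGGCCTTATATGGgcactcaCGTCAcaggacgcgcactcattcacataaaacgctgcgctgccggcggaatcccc
Dusp14: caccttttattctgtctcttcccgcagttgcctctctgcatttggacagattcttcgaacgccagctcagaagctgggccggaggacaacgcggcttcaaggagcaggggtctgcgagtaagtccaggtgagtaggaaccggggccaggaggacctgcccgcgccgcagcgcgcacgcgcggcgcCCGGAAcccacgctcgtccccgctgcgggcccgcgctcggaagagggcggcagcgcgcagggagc

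The motifs searched, on both strands, were the cAMP response element TGACGTCA and its core TGACG, the AP-1 site TGANTCA, the ETS site CCGGAA, the glucocorticoid receptor core site AGAACA, and the CArG box bound by serum response factor. Of the 10 genes 9 matched the table, and Dusp4 was not searched. Dusp1 held 1 full cAMP response element, 143 to 136 bases before the start, which itself contains 2 of the 3 core matches of that stretch; 1.55% of the 32851 promoters in the table hold the full element and 17.8% the core. Dusp5 held 2 CArG boxes side by side, 82 to 73 and 72 to 63 bases before the start, and 1 core TGACG on the other strand; 1.47% of promoters hold a CArG box. Dusp14 held 1 ETS site (12.0% of promoters). The AP-1 site (6.75% of promoters) and the glucocorticoid receptor core site (16.1%) were in none of the 9 windows, and the windows of Dusp2, Dusp6, Dusp10, Spry1, Spry2 and Spred1 held none of the motifs. A match is a run of letters and was not tested as a binding site.

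Mast cell markers moved with the brake genes. Stress replicate 2 was the highest library for 5 of the 10 genes, and control replicate 2 was the lowest for 7. The summed level of the 12 mast cell markers was 91879, 102870 and 85363 CPM in stress replicates 1, 2 and 3, against 71090, 58907 and 71178 CPM in control replicates 1, 2 and 3, with stress replicate 2 again the highest library and control replicate 2 the lowest. Of these markers 7 rose, none fell and 5 did not pass (median log2 fold change 0.45), and none was at 0 in all libraries. The 5, outside the rule for named genes in this list, were Kit (0.23, adjusted p = 0.187), Gata2 (0.26, 0.155), Mitf (0.16, 0.411), Hdc (0.40, 0.0562) and Tpsb2 (0.45, 0.0539). For Kit, Gata2 and Mitf the groups overlapped. Mrgprb2, a receptor of connective tissue mast cells, rose by 1.30 on the log2 scale (adjusted p = 0.0017), Fcer1a, the alpha chain of the IgE receptor, by 2.26 (0.00666), the chymase gene Mcpt4 by 1.04 (0.00946) and Ms4a2, the beta chain of the IgE receptor, by 0.58 (0.0152). The markers with the highest CPM, the carboxypeptidase gene Cpa3 (0.55, adjusted p = 0.0286) and the chymase gene Cma1 (0.40, adjusted p = 0.0463), rose too, in calls that ended with the mean level of macrophage markers as a covariate (0.123 for Cpa3 and 0.196 for Cma1) and in 5 of the 6 fits that left out 1 library; that of Ms4a2 ended without control replicate 2 (0.0741). In bulk RNA a different number of cells of a type and a different amount of RNA per cell cannot be told apart. The part of the mast cell share in the rise of the brake genes was not tested.

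Macrophage transcripts were present in every library. The 16 macrophage and monocyte markers summed to between 5287 and 8024 CPM in the stress libraries, highest in stress replicate 3, and to between 6961 and 7916 CPM in the controls (two-sided exact permutation test, p = 0.4). Cd68, a lysosomal protein, rose, Cx3cr1, the fractalkine receptor, fell, and the other 14 did not pass; none of the 16 was at 0 in all libraries. The log2 fold change was below 0 for 13 of the 16, with a median of -0.26, and 8 of the 16 had an unadjusted p under 0.05. Those with the highest CPM, Mrc1 (-0.24, adjusted p = 0.508) and Csf1r (-0.49, adjusted p = 0.122), did not pass, but both passed without stress replicate 3 (-0.57 and 0.00443 for Mrc1, -0.74 and 0.0016 for Csf1r). Csf1r also passed with DESeq2 (0.021) and with no filter (0.00723). The call of Cd68 ended with library totals (0.105), and without stress replicate 1 or any 1 control (up to 0.141). With the mean level of these markers as a covariate Dusp2, Dusp4, Dusp14 and Spry1 passed, at log2 fold changes of 0.35, 0.96, 1.39 and 0.47, while Dusp1 (0.25, adjusted p = 0.179) and Dusp5 (0.48, adjusted p = 0.0893) did not. The 18 markers of stromal, epidermal, vascular, pigment and lymphoid cells summed to 193 to 319 CPM in the stress libraries and 134 to 174 CPM in the controls. Of the 15 tested 4 rose, namely the pigment cell genes Mlana, Dct and Pmel and the interleukin 7 receptor gene Il7r, none fell and 11 did not pass, the collagen gene Col1a1 among them (0.44, adjusted p = 0.435); none of the 18 was at 0 in all libraries. With 1 library left out the calls ended in 5 of the 6 fits for Mlana, 4 for Dct and 3 for Pmel, and that of Mlana ended with the macrophage covariate (adjusted p = 0.16). Over the 15 tested the log2 fold change was above 0 for 11 and below 0 for 4. Among the latter were the lymphoid genes Cd3g (-1.80, adjusted p = 0.0841) and Trdc (-2.81, 0.0806), named after their values were seen. In both all stress libraries were below all controls, and control replicate 1 was the highest. Cd3e, not tested, had 0 counts in each stress library and 74, 8 and 5 in control replicates 1, 2 and 3. The part of stromal, epidermal, vascular, pigment and lymphoid cells in the result was not tested.

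Most of the remaining DUSP, Sprouty and Spred genes did not pass. Of 22 in the files 17 were tested, of which 2 rose, none fell and 15 did not pass (median log2 fold change 0.11). Dusp16, whose product acts on JNK and p38, had 112, 155 and 149 CPM in stress replicates 1, 2 and 3, against 104, 93.4 and 101 CPM in control replicates 1, 2 and 3 (log2 fold change 0.48 ± 0.11 SE, adjusted p = 0.0448). Dusp23, a small phosphatase, rose by a like amount at a low level, 5.22, 5.75 and 4.93 CPM in the stress libraries against 3.62, 3.73 and 4.1 CPM in the controls (adjusted p = 0.0452). The call of Dusp16 ended without stress replicate 2 (adjusted p = 0.158) or any 1 control (0.0942 to 0.186), and that of Dusp23 without any 1 library other than stress replicate 3 (0.0852 to 0.163). With library totals in place of TMM factors Dusp16 (adjusted p = 0.0516) and Dusp23 (0.0681) did not pass, nor did they with the macrophage covariate (0.073 for Dusp16 and 0.158 for Dusp23), which leaves 0 of the 17. Dusp11, an RNA phosphatase and the most abundant of these genes in CPM, was at 318 ± 7.09 in the stress libraries and 296 ± 10.1 in the controls (SD, n = 3 each; adjusted p = 0.283). Dusp7, a near relative of Dusp6 named after its values were seen, did not pass either and was at 13.8, 10.3 and 13.2 CPM in the stress libraries against 13.7, 16.9 and 16.4 CPM in the controls (adjusted p = 0.143).

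Most genes of the cascade in which the brakes act did not pass. The list runs from Kit and its adaptors down to kinases that MAP kinases activate, so many of its genes are not targets of the brakes. Of 61 genes of the RAS and MAP kinase cascade 4 rose, none fell and 57 did not pass, with a median log2 fold change of -0.0047. Rps6ka2, a ribosomal S6 kinase that ERK activates, had 26.9, 31.2 and 27.5 CPM in stress replicates 1, 2 and 3, against 18.9, 16.8 and 14.9 CPM in control replicates 1, 2 and 3 (log2 fold change 0.76 ± 0.10 SE, adjusted p = 0.00736), in a call that held without any 1 library. Shoc2, a scaffold that promotes RAF activation, rose by 0.55 on the log2 scale (adjusted p = 0.0169) and Sos2, an exchange factor of RAS, by 0.39 (adjusted p = 0.0361); Gab2, an adaptor below KIT and the IgE receptor, was the fourth. The calls of Shoc2 and Sos2 ended in 4 of the 6 fits that left out 1 library, and that of Gab2 in 3; with library totals alone Sos2 did not pass (adjusted p = 0.0532), nor with the macrophage covariate (log2 fold change 0.24, adjusted p = 0.107). Mapkapk2, a kinase that p38 activates and after Kit the most abundant of the list in CPM, did not pass (log2 fold change -0.03, adjusted p = 0.9). Kit was at 2325, 2164 and 1889.7 CPM in the stress libraries, against 1924, 1636 and 1894 CPM in the controls (adjusted p = 0.187).

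Among 26 other brakes on RAS and MAP kinases that were tested, of 28 listed, 1 rose, 1 fell and 24 did not pass (median -0.0111). Lrig1, a membrane protein that promotes the breakdown of receptor tyrosine kinases, had 5.24, 7.16 and 4.39 CPM in stress replicates 1, 2 and 3, against 2.8, 2.02 and 2.13 CPM in control replicates 1, 2 and 3 (log2 fold change 1.26 ± 0.205 SE, adjusted p = 0.0139). It did not pass without control replicate 2 or 3 (adjusted p up to 0.0728). Rasa4, a GTPase-activating protein of RAS, was at 20.2, 17.7 and 23.2 CPM in the stress libraries, against 25.6, 28.1 and 29.3 CPM in the controls, and fell by 0.44 on the log2 scale (adjusted p = 0.0413). The call of Rasa4 ended without any 1 library other than stress replicate 3 (adjusted p up to 0.155), and with the macrophage covariate (log2 fold change -0.26, adjusted p = 0.119). Ptpn6, the phosphatase SHP-1, was the most abundant in CPM of this list and did not pass (adjusted p = 0.301), nor did Dgkz, a diacylglycerol kinase and the next in CPM (adjusted p = 0.31).

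**Figure D4:**
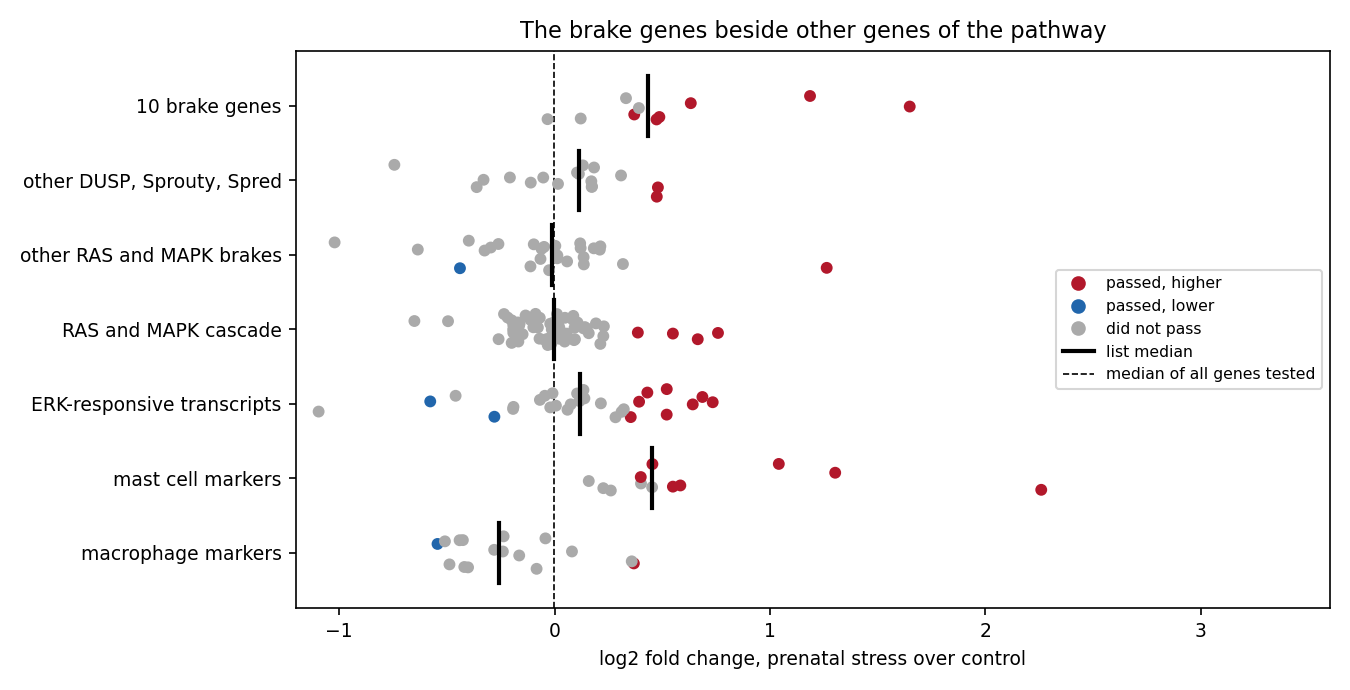
Log2 fold change, prenatal stress over control (horizontal axis), of every tested gene of 7 lists, red or blue where it passed higher or lower and grey where it did not; the vertical position inside a row is only spread for legibility. Black bars are list medians, 0.43 for the brake genes, -0.0047 for the cascade and 0.45 for the mast cell markers, and the dashed line is the median of all genes tested.

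Transcripts listed here as ERK-responsive moved in part. The list is broad, and whether ERK induces each of its genes in these cells was not tested. Of 29 tested 8 rose, 2 fell and 19 did not pass (median 0.12). Egr3, a zinc finger transcription factor of the immediate early class, had 547, 654 and 660.3 CPM in stress replicates 1, 2 and 3, against 349, 367 and 403 CPM in control replicates 1, 2 and 3 (log2 fold change 0.73 ± 0.09 SE, adjusted p = 0.00565). Ier2, also an immediate early gene, was at 313, 316 and 291 CPM in the stress libraries against 207, 206 and 229 CPM in the controls (adjusted p = 0.00644), and Plaur, the urokinase receptor, at 211, 241 and 225 CPM against 154, 153 and 166 CPM (adjusted p = 0.00712). These 3 calls held without any 1 library. Ier3 and Fosb rose as well, by 0.43 and 0.39 on the log2 scale, and Egr1, Egr2 and Areg, which the rule for named genes does not pick in this list, were the others. The call of Ier3 ended without stress replicate 1 or 2 (adjusted p up to 0.0672), and that of Fosb without any 1 library other than stress replicate 3 (up to 0.119) and with the macrophage covariate (0.125). Myc (-0.58, adjusted p = 0.0299) and Elk3 (-0.28, adjusted p = 0.0472) are the 2 that fell; they are outside the rule for named genes and were picked for their values. Fosb and Nr4a1, an orphan receptor gene, had the highest mean CPM of the list, and Nr4a1 did not pass (log2 fold change 0.32, adjusted p = 0.18).

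Immediate early and heat shock genes, which tissue digestion is known to induce, also rose in part. Of 22 tested 8 rose, none fell and 14 did not pass (median 0.35); 8 of the 22 are also in the list of ERK-responsive transcripts. Their summed level was 18613, 18211 and 16898 CPM in stress replicates 1, 2 and 3, against 15414, 13627 and 15919 CPM in control replicates 1, 2 and 3. The groups did not overlap (two-sided exact permutation test, p = 0.1, which cannot be lower with 3 libraries a group). Junb, an AP-1 subunit, rose by 0.93 on the log2 scale (adjusted p = 0.013), in a call that ended without control replicate 2 (0.0686). Egr1, a zinc finger factor, rose by 0.64 (adjusted p = 0.0197) but did not pass without stress replicate 2, control replicate 2 or control replicate 3 (up to 0.0787); Ier2 and Ier3 are given above, and Hspa8, a heat shock chaperone with the highest CPM of the list, did not pass (0.04, adjusted p = 0.78). Jund, an AP-1 subunit, and the heat shock gene Hspa1b are outside the rule for named genes and were picked for their values. Jund rose by 1.16 (adjusted p = 0.0204), the largest log2 fold change of the list, and Hspa1b by 0.70 (0.0209). Neither call was followed with 1 library left out. The log2 fold change was above 0 for 16 of the 22 and below 0 for 6, where 8226 of the 16716 genes tested were above 0. Among those 6 were the heat shock genes Hspe1, Hsp90aa1, Dnaja1 and Hsph1. Every library was digested, and the part of digestion in the rise of Dusp1 and the other immediate early brakes was not tested.

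Glucocorticoid-responsive transcripts were read beside Dusp1. Of 16 tested 3 rose, none fell and 13 did not pass (median 0.21). The log2 fold change was above 0 for 13 of the 16, where it was for 8226 of the 16716 genes tested. For 7 of the 16 all stress libraries were above all controls, where 16% of all genes tested were. Their summed level was 3406, 3199 and 3008 CPM in stress replicates 1, 2 and 3, against 2670, 2525 and 2815 CPM in control replicates 1, 2 and 3. The sums did not overlap (two-sided exact permutation test, p = 0.1, the lowest possible with 3 libraries a group). Tsc22d3, which encodes GILZ, had 153, 152 and 139.9 CPM in stress replicates 1, 2 and 3, against 116, 104 and 122 CPM in control replicates 1, 2 and 3 (log2 fold change 0.38 ± 0.07 SE, adjusted p = 0.0212). The others that rose were Klf9, a Krüppel-like factor (0.57, adjusted p = 0.028), and Nfkbia, the inhibitor of NF-kB (0.61, adjusted p = 0.0214), which is also among the digestion genes. None of these 3 passed with the macrophage covariate (0.0658 for Tsc22d3, 0.0924 for Klf9 and 0.0693 for Nfkbia), and with 1 library left out Tsc22d3 and Nfkbia did not pass in 4 of the 6 fits and Klf9 in 5. Zfp36, an RNA-binding protein that destabilises mRNA and also among the digestion genes, did not pass (0.21, adjusted p = 0.134). Fkbp5 and Per1, named after their values were seen, did not pass either: Fkbp5 was at 70.8, 67.8 and 77.5 CPM in the stress libraries against 72.4, 63.2 and 65.7 CPM in the controls (adjusted p = 0.417), and the log2 fold change of Per1 was 0.01 (adjusted p = 0.961).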

How the data were processed

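Per the submitters' processing notes FastQC, STAR 2.4 and HTSeq 0.9.1 were used, with the builds GRCm39 and mm10 named without a role. The authors deposited raw counts per gene symbol, 1 table per library; the strand setting, annotation release and filters were not given in the sources used here. The 5 rows that name no gene were left out (18.6% to 20.3% of all tallied reads per library). Symbols were matched to GENCODE M21 for lengths and overlaps; the 10 genes share none of their transcript sequences of 75 bases with another gene. Promoter sequences are RefSeq's, with coordinates of GRCm38.p6 and not of the count tables. No protein sequence was used here.

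Genes were filtered with filterByExpr (minimum count 10), scaled with TMM factors and tested with edgeR 4.0.16 (R 4.3.3), prenatal stress against control with no covariate. The 95% intervals are of single genes, not adjusted. DESeq2 1.42.0, limma-voom (limma 3.58.1), other scalings and filters, a replicate block, the macrophage covariate and leaving out each library were the alternatives. The 10 genes, the lists and the tests were chosen with earlier results of these data known. From each list beside the 10 genes, up to 4 genes that passed with the smallest p and the 2 with the highest mean CPM were named; genes named outside this rule are marked as such or as chosen after their values were seen. All libraries carry the same flow cell and lane name.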

Additional observations from a re-analysis of the deposited data

How the results depend on the processing

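The 10 brake genes kept the sign of their log2 fold change under all 15 alternatives to the test as reported. Dusp4 and Dusp14 passed under all 15; Dusp6, Spry2 and Spred1 under none. The count of the 10 that passed was 6 with RLE or upper-quartile factors, the stricter filter, DESeq2 and limma-voom, 7 with no filter, 5 with library totals only, 4 with the macrophage covariate, and 2 to 7 with 1 library left out. With library totals alone the median log2 fold change over all genes was -0.12, and that of Dusp1 0.36 (adjusted p = 0.0555); the share of calls that were higher was 26.5% with library totals, against 70.0% with TMM factors. The count over all genes was 1035, and it was 2085 with library totals only, 1933 with no filter, 1989 with DESeq2, 622 with the replicate block, 517 with the macrophage covariate and 196 to 2647 with 1 library left out. As a share of the genes tested in the same fit, that was 6.19%. The share was 12.5% with library totals only, 6.60% with no filter, 9.50% with the stricter filter and 11.9% with DESeq2. With limma-voom, RLE or upper-quartile factors it was 5.96% to 6.48%. It was 3.72% with the replicate block, 3.09% with the macrophage covariate and 1.14% to 15.4% with 1 library left out. In the 4 pathway lists together 18 of 133 genes passed, against 29 with library totals only, 28 with no filter, 30 with DESeq2 and 5 to 34 with 1 library left out. With the longest transcript as gene length, 6 of the 10 genes kept their place in the order of levels per kilobase in the stress libraries and 8 in the controls, and each change was a swap of neighbours. The cause of these shifts was not tested. With the replicate number as a block 4 of the 10 passed: Dusp1 (adjusted p = 0.0767) and Dusp5 (0.0513) did not, and Dusp2, Dusp4, Dusp14 and Spry1 did. The labels do not say that a number marks a shared litter, batch or day. Deviations from the group means of same-numbered libraries correlated across genes at 0.095, -0.019 and 0.068 for numbers 1, 2 and 3. Not every library correlated best with its own number. The deviations within a group of 3 depend on each other, so these values cannot settle whether the libraries are paired.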
